A study of Mus musculus with 36 samples.

Results

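Complement is a set of plasma and tissue proteins that tag microbes and dying cells for removal. The genes described here are 9 of the 52636 genes counted in each library, namely C1qa, C1qb, C1ra, C4b, C2, C3, Cfb, Serping1 and C3ar1, chosen by symbol as complement components, a regulator and a receptor. All 9 had reads in every intestine library, while cultured fibroblasts held at most 4 reads of Cfb per library. RNA was sequenced from E18.5 mouse intestines, and from mouse embryonic fibroblasts (MEFs), in 12 groups of 3 libraries each. The study asked what cFLIP, encoded by Cflar, prevents when caspase-8 cannot process itself (the 1xDA allele, D387A in the labels) or cannot cleave at all (C362A), and which signals act through caspase-1, the interferon receptor and FADD.

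The D387A intestines held 6 genotypes. Besides Mlkl-/- controls these were Casp8 1xDA/1xDA (written 1xDA), the same with Cflar-/- and Mlkl-/- (1xDA Cflar-/-), and that triple mutant with added Casp1-/- (1xDA Cflar-/- Casp1-/-), with Casp1-/- and Ifnar-/- (labelled Ifnar1 KO) or with Casp1-/- and Fadd-/-. The C362A intestines held a separate group of Mlkl-/- controls, Casp8 C362A/C362A with Mlkl-/- (written C362A), and that genotype with Casp1-/- or with Cflar-/- added. For MEFs, Mlkl-/- controls were set against 1xDA Cflar-/- cells, both grown from embryos without head and internal organs and used at low passage. All alleles were homozygous in the germ line, and all groups other than 1xDA lacked Mlkl, the executor of necroptosis, so the short names leave it out and "control" means Mlkl-/- throughout. The 1xDA embryos carried intact Mlkl, so they differ from the controls at both genes. In the D387A line the Cflar and Mlkl deletions descend from 1 mosaic founder. Titles of the 1xDA Cflar-/- Casp1-/-, 1xDA Cflar-/- Casp1-/- Ifnar-/- and 1xDA Cflar-/- Casp1-/- Fadd-/- libraries bear other leading numbers than those of the controls, so genotype and whatever these numbers mark cannot be told apart.

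In the classical pathway, C1q (chains from C1qa, C1qb and C1qc) binds its target and activates the proteases C1r and C1s, which cleave C4 and then C2. Fragments of C4 and C2 form an enzyme that cleaves C3, and factor B (Cfb) forms the corresponding enzyme of the alternative pathway. C1 inhibitor, from Serping1, blocks C1r and C1s, and C3ar1 encodes the receptor for the small C3 fragment that recruits and activates leukocytes. Liver makes most circulating complement, tissue macrophages make C1q, and epithelial and stromal cells can make several components locally.

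On GRCm38, C1qa lies on chromosome 4 from 136895917 to 136898803 and C1qb beside it from 136880129 to 136886187, both on the minus strand. C1ra lies on the plus strand of chromosome 6 from 124512405 to 124523443, and C3ar1 on its minus strand from 122847138 to 122856161. Chromosome 17 carries C4b (34728380 to 34743882), C2 (34862604 to 34898265), Cfb (34856374 to 34862518) and C3 (57203970 to 57228136), all on the minus strand, and Serping1 lies on the minus strand of chromosome 2 from 84765387 to 84775444. The exons of C1ra share 50.8% of their 50-base stretches with other genes, chiefly C1rb, and those of C4b share 34.6% with C4a. C2 and Cfb overlap a read-through transcript, Gm20547, that was given at most 1 read in any library, and their exons share 41.5% and 73.0% of such stretches with other genes. Levels of C1ra, C4b, C2 and Cfb are therefore uncertain where reads from shared stretches were dropped or split. Zbtb12, on the opposite strand, overlaps 4.16% of the C2 exons, and whether counting used strand is not known. C1qa, C1qb, C3, Serping1 and C3ar1 share no such stretch.

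The sequence before the C3 start site is shown because C3 was the only one of the 9 genes called in both intestine and MEFs. It covers the 250 bases upstream of the RefSeq start on the minus strand, chr17:57228137-57228386 of GRCm38.p6, written 5′ to 3′ with a match to the C/EBP-type motif TTGCNNAA in capitals.
C3: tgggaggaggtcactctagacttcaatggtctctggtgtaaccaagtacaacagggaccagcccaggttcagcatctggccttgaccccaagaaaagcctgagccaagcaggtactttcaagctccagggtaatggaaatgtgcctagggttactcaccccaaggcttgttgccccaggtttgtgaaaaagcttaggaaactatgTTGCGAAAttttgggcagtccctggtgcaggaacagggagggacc
The match, TTGCGAAA, ended 38 bases before the start. Searched on both strands, that motif was present in 9.56% of 32851 mouse promoter windows of this length, the STAT-type motif TTCNNNGAA in 7.02%, a paired interferon-response motif in 2.98% and an NF-kB motif in 7.25%. Windows were held for C1qb, C1ra, C3 and C3ar1, and the match in C3 was the only one found in these 4. Such a match is a description of letters and was not tested as a binding site.

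Libraries held 17943524 to 32307629 reads on genes. Levels are RPKM, reads scaled by gene width and by library size after TMM normalisation, so they may be compared between genes. A gene was called where edgeR's quasi-likelihood test gave an adjusted p under 0.05 (Benjamini-Hochberg, over all genes tested) and the log2 fold change lay beyond 1 in either direction. Reads on targeted genes could check some labels. In CPM, the same scale without the gene width, the 12 Casp1-deficient intestines did not exceed 0.212 for Casp1 while the 18 others did not fall below 42.6. Fadd spanned 0.659 to 1.01 CPM in the 3 Fadd-deficient intestines, and elsewhere its lowest value was 25.5 CPM. Ifnar1 kept 33.2 to 37.9 CPM in Ifnar-deficient intestines, against 76.1 CPM or more elsewhere. Cflar does not check the labels of the D387A intestines, at 33.8 to 59.4 CPM in Cflar-deficient ones and 45.7 to 50.5 CPM in their controls. It was lower in C362A Cflar-/- intestines (39.7 to 44.4 CPM) than in their controls (54.5 to 57.2 CPM). In MEFs it lay at 55.9 to 60.3 CPM in mutants and 84.9 to 92.5 CPM in controls. Mlkl does not check the labels, since C362A intestines, labelled deficient, held 30.02 to 36.1 CPM and 1xDA intestines, with Mlkl intact, 10.9 to 13.9 CPM. Intestines expressed Vil1 at 441.5 CPM or more, and MEFs had Col1a1 at 8518 to 11055 CPM and Vil1 at no more than 0.609 CPM. The third 1xDA Cflar-/- Casp1-/- embryo stood apart from its group. It was the highest of the 3 for all 9 genes, at 1.56 to 4.24 times the mean of the others. Its Mlkl level was 46.1 CPM, inside the 45.8 to 55.9 CPM of the 1xDA Cflar-/- Casp1-/- Ifnar-/- group. The first and second embryos held 6.27 and 7.46 CPM, nearer the 4.78 to 5.35 CPM of the D387A controls. Mlkl lay at 22.2 to 26.9 CPM in 1xDA Cflar-/- and 55.4 to 62.6 CPM in 1xDA Cflar-/- Casp1-/- Fadd-/- intestines. Why this group divides was not tested. Where leaving out the library of the third embryo changed a call of the 9 genes, the value without it is also given. In bulk tissue, fewer cells of a type and less RNA per cell cannot be told apart.

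**Figure D1:**
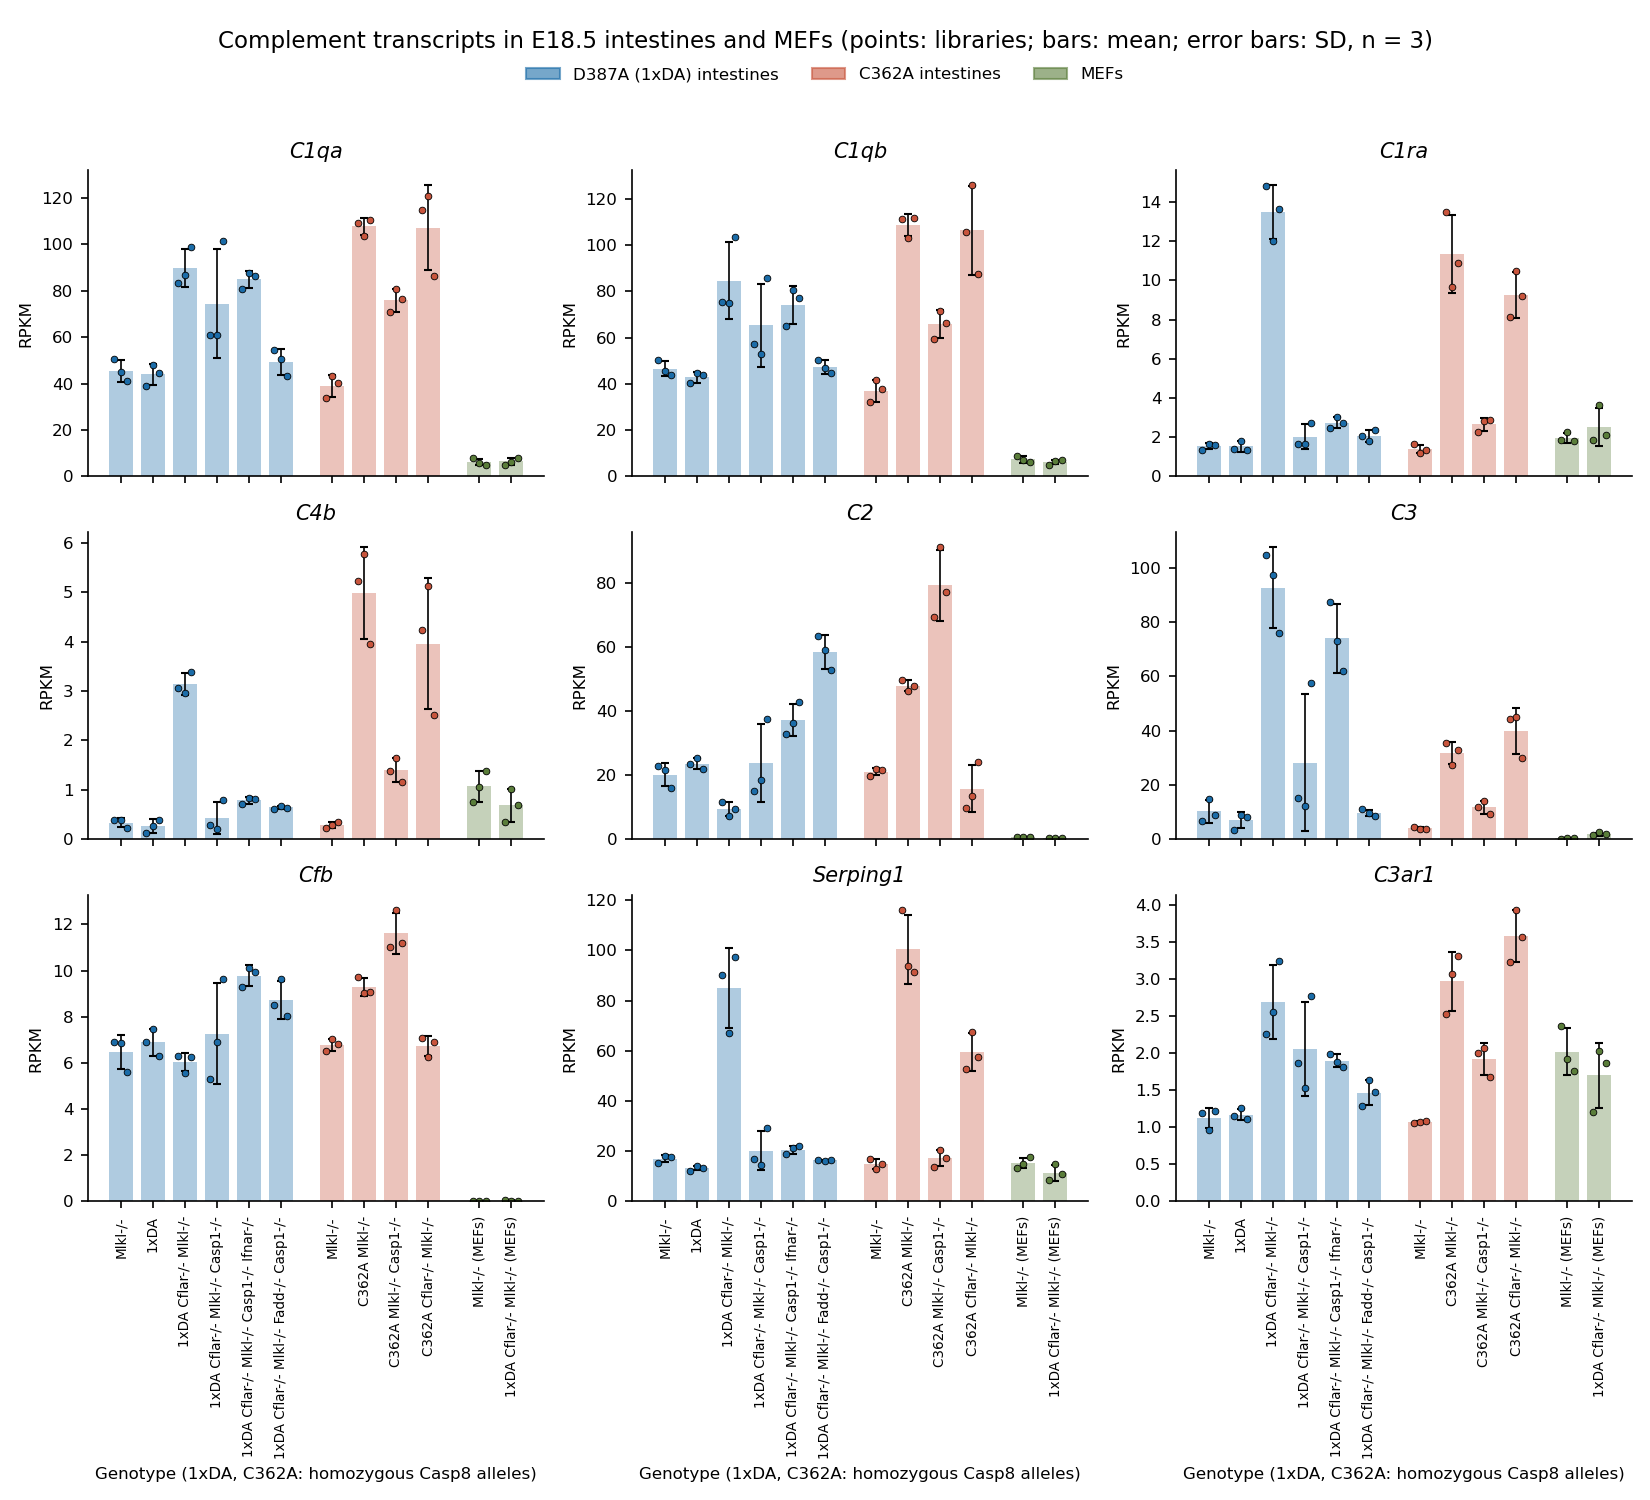
RPKM of each of the 9 genes (linear axes from 0) in every library, by genotype, with bars at the mean of 3 libraries and error bars of 1 SD. C1ra, C4b and Serping1 are high in the 1xDA Cflar-/-, C362A and C362A Cflar-/- intestines and lower with caspase-1 lost. C4b then stands at 1.15 to 1.64 RPKM in C362A Casp1-/- intestines, above the 0.226 to 0.348 RPKM of their controls. C2 is highest in C362A Casp1-/- and 1xDA Cflar-/- Casp1-/- Fadd-/- intestines, and Cfb spans 5.29 to 12.6 RPKM over all 30 intestines.

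In control intestines of the D387A set, C1qa and C1qb were the most abundant of the 9 transcripts, at 41.1 to 50.4 and 43.9 to 50.4 RPKM. C2 (15.9 to 22.7 RPKM) and Serping1 (15.4 to 17.9 RPKM) followed with overlapping ranges, as did C3 (6.76 to 14.8 RPKM) and Cfb (5.62 to 6.91 RPKM). C1ra (1.35 to 1.66 RPKM) and C3ar1 (0.964 to 1.22 RPKM) were low, and C4b was lowest at 0.223 to 0.391 RPKM. Control intestines of the C362A set gave the same order apart from C3, which lay below Cfb at 4.27, 3.63 and 3.83 RPKM. The C3 values of the 2 control groups did not overlap, and each mutant was compared with the 3 controls of its own set, which the mutants of that set share.

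Loss of cFLIP together with the 1xDA allele was accompanied by higher transcripts of C3, its receptor C3ar1, C1 inhibitor and 2 early components, C1ra and C4b. Between 1xDA Cflar-/- and Mlkl-/- intestines, 5 of the 9 genes were called higher and 1 lower, where 9.4% and 12.8% of the 18360 genes tested were called in these directions. C2 fell, and the changes of C1qa and C1qb passed the adjusted p but not the fold threshold. Libraries of the 2 groups did not overlap for 8 of 9 genes, against 68.1% of all genes tested, and the median log2 fold change of the 9 was 1.26 beside -0.01 over all genes. The 9 genes were chosen with earlier results of these data known, and the 31 other complement genes tested had a median of -0.02.

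C1ra, encoding the first protease of the pathway, stood at 1.35, 1.66 and 1.63 RPKM among controls and 14.8, 12 and 13.6 RPKM among mutants. All 3 mutants lay far above all 3 controls, a change of 8.72-fold (log2 fold change 3.12 ± 0.19 SE, adjusted p = 3.88e-10, edgeR). Its partner protease gene C1s1 went from 2.91, 3.87 and 3.34 to 24.5, 20.5 and 23.5 RPKM, again without overlap (log2 fold change 2.76 ± 0.19 SE, adjusted p = 1.36e-09, edgeR).

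C4b, the gene for a protein that C1s cleaves, was scarce in controls at 0.375, 0.391 and 0.223 RPKM and reached 3.06, 2.96 and 3.39 RPKM in 1xDA Cflar-/- embryos. The groups were widely separated, and the fitted rise was 9.5-fold (log2 fold change 3.25 ± 0.37 SE, adjusted p = 6.99e-07, edgeR). C4a, its close copy, had no more than 20 reads in any of these libraries.

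C3, on which all complement pathways converge, varied among the controls at 6.76, 14.8 and 8.87 RPKM and stood at 105, 97.4 and 75.9 RPKM in the mutants. Every mutant lay far above every control, and the change was 9.14-fold (log2 fold change 3.19 ± 0.49 SE, adjusted p = 2.31e-05, edgeR). Serping1, whose product inhibits C1r and C1s, went from 15.4, 17.9 and 17.8 to 90.2, 67 and 97.5 RPKM. That is a rise of 4.98-fold with no overlap between groups (log2 fold change 2.32 ± 0.19 SE, adjusted p = 1.81e-08, edgeR), so the inhibitor and its target proteases were higher in the same intestines.

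C2 moved in the opposite direction. Its levels were 22.7, 21.6 and 15.9 RPKM in controls and 11.5, 7.02 and 9.28 RPKM in 1xDA Cflar-/- embryos, 2.17-fold lower (log2 fold change -1.12 ± 0.26 SE, adjusted p = 0.00126, edgeR). The groups did not overlap, and the call depended on the second 1xDA Cflar-/- embryo, without which the log2 fold change was -0.95. The neighbouring Cfb gene, whose protein resembles C2, stood at 6.91, 6.86 and 5.62 RPKM in controls and 6.28, 5.57 and 6.28 RPKM in mutants, and these ranges overlapped (log2 fold change -0.10 ± 0.16 SE, adjusted p = 0.624, edgeR).

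C1qa stood at 50.4, 45 and 41.1 RPKM in controls and 83.3, 86.6 and 98.9 RPKM in 1xDA Cflar-/- embryos, and C1qb at 50.4, 45.6 and 43.9 and 75.2, 74.9 and 104 RPKM. Neither gene overlapped between groups, and the log2 fold changes were 0.98 for C1qa (adjusted p = 4.31e-05) and 0.86 for C1qb (adjusted p = 1.31e-04, both edgeR), just under the fold threshold of 1. Both passed it with the control embryos of both sets pooled, at 1.11 and 1.05, and C1qa did so in 3 fits that left out 1 library. C3ar1, the C3 fragment receptor of myeloid cells, went from 1.19, 0.964 and 1.22 to 2.27, 2.56 and 3.25 RPKM, without overlap and past the threshold (log2 fold change 1.26 ± 0.19 SE, adjusted p = 1.85e-05, edgeR). Across all 30 intestines the ratio of C1qb to C1qa stayed between 0.804 and 1.07, and that of C1qc to C1qa between 0.623 and 0.823, while the ratio of C3 to Cfb ran from 0.496 to 17.5.

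Myeloid markers also changed in this comparison, in both directions. The 12 macrophage and monocyte markers summed to 464 to 487 CPM in the controls and 273 to 378 CPM in 1xDA Cflar-/- intestines, with 4 called higher and 2 lower and a median log2 fold change of 0.81. Csf1r, the receptor that macrophages need to survive, lay at 258 to 277 CPM in controls and 64.6 to 95.8 CPM in mutants, while Cd14, a receptor for bacterial lipopolysaccharide, lay at 2.47 to 3.23 and 22.1 to 24.7 CPM. The 10 neutrophil markers summed to 5.39 to 24.6 and 39.96 to 138 CPM. The part of these cells in the complement levels was not tested.

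**Figure D2:**
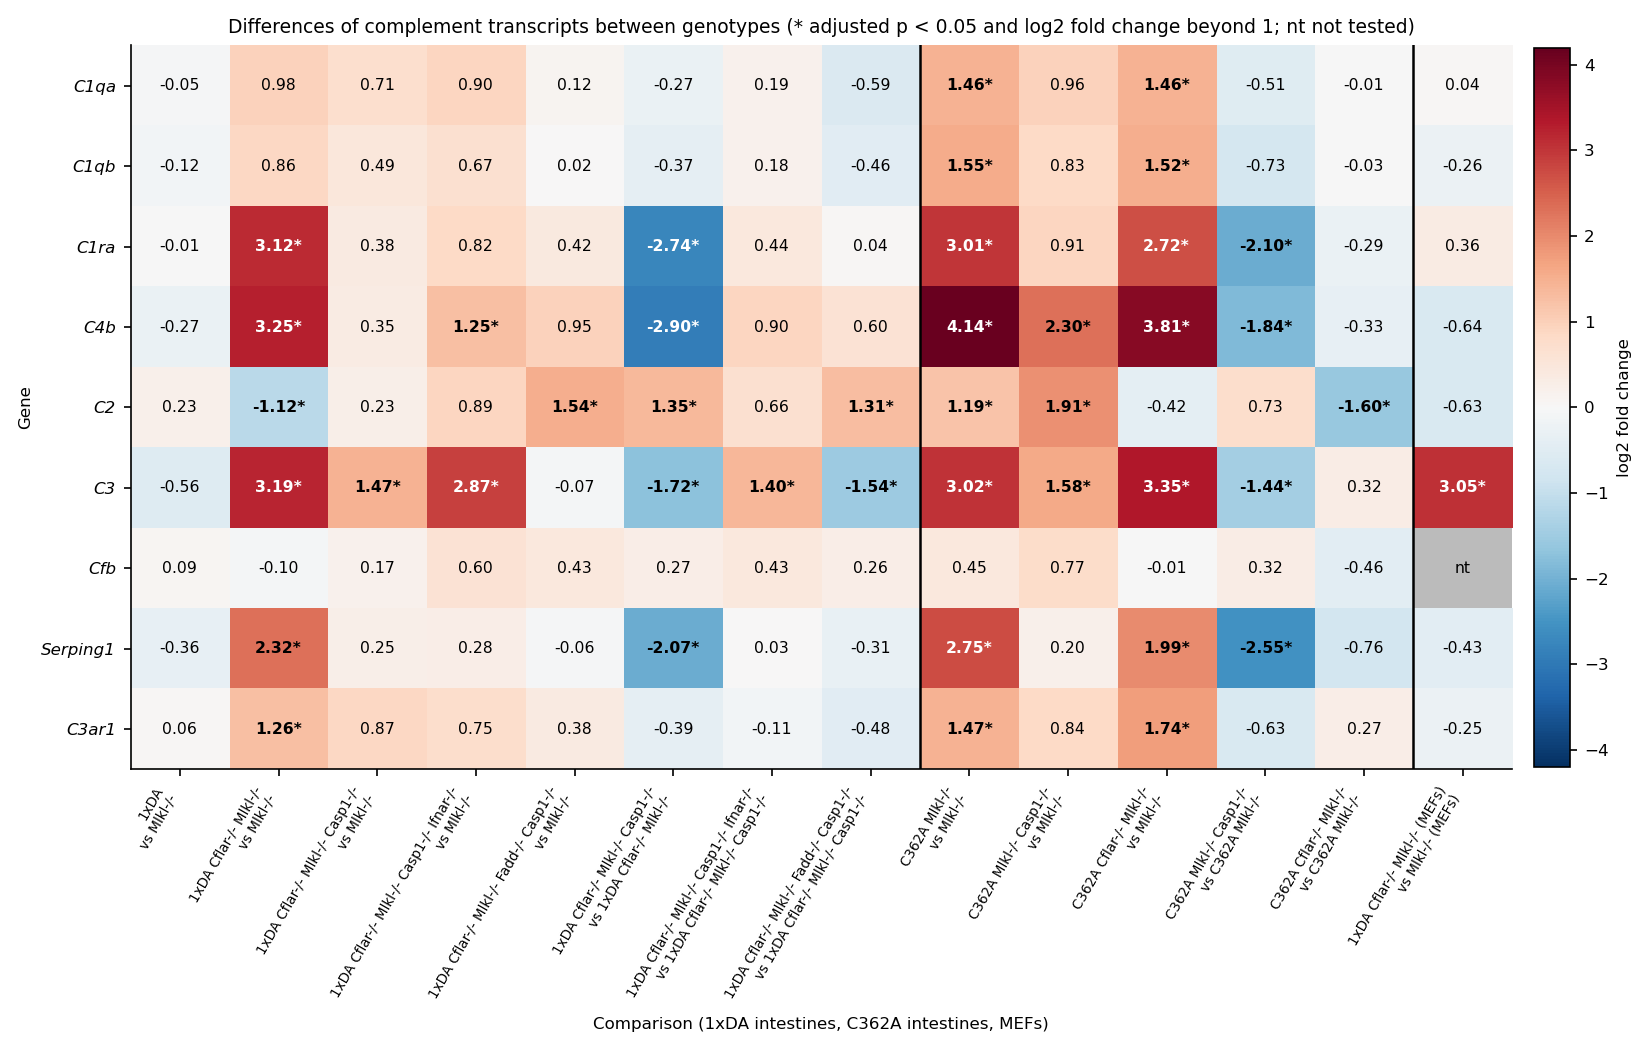
Log2 fold change of each of the 9 genes (rows) in the 14 comparisons (columns), from blue (lower) to red (higher), with asterisks on called values. C3 carries 11 asterisks, C1ra and Serping1 5 each, and Cfb none.

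The 1xDA allele without cFLIP loss moved none of the 9 genes past the threshold. Of the 9 genes 0 were called in 1xDA against Mlkl-/- intestines, where 0% of genes were called higher and 0.00545% lower, and limma-voom and DESeq2 called 0 as well. The lowest unadjusted p, 0.0762, was that of Serping1, which stood at 12.3, 14.1 and 13.4 RPKM against 15.4, 17.9 and 17.8 RPKM in controls and was the only one of the 9 without overlap, as were 15.6% of all genes tested. C3 lay at 3.43, 8.96 and 8.18 RPKM, C1ra at 1.42, 1.84 and 1.35 RPKM and C1qa at 39.2, 47.9 and 44.7 RPKM, each overlapping the controls.

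Intestines with catalytically inactive caspase-8 had higher transcripts of all but Cfb past the threshold. In C362A against Mlkl-/- intestines, 8 of the 9 genes were called higher and 0 lower, where 10.4% of the 19408 genes tested were called higher and 7.55% lower. The groups did not overlap for any of the 9 genes, as for 53.6% of all genes tested. The median log2 fold change of the 9 was 1.55, beside 0.02 over all genes and 0.19 over the 32 other complement genes tested.

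C4b changed most, from 0.226, 0.275 and 0.348 RPKM in controls to 5.22, 5.77 and 3.96 RPKM in C362A embryos, or 17.7-fold (log2 fold change 4.14 ± 0.28 SE, adjusted p = 4.04e-08, edgeR). C1ra went from 1.64, 1.21 and 1.37 to 13.5, 9.64 and 10.9 RPKM (log2 fold change 3.01 ± 0.18 SE, adjusted p = 1.07e-08, edgeR). For both genes the lowest mutant lay well above the highest control.

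C3 stood at 4.27, 3.63 and 3.83 RPKM in these controls and 35.3, 27.4 and 32.7 RPKM in C362A embryos, 8.13-fold higher with no overlap (log2 fold change 3.02 ± 0.19 SE, adjusted p = 1.76e-08, edgeR). Serping1 rose from 16.9, 12.8 and 15.1 to 116, 93.6 and 91.5 RPKM (log2 fold change 2.75 ± 0.17 SE, adjusted p = 1.33e-08, edgeR), which put it level with C1q as the most abundant of the 9 transcripts. C2, which had fallen in 1xDA Cflar-/- intestines, was higher here at 49.6, 46.1 and 47.7 RPKM against 19.8, 21.8 and 21.5 RPKM (log2 fold change 1.19 ± 0.23 SE, adjusted p = 8.40e-04, edgeR).

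Both C1q chains rose past the threshold in this set, C1qa from 33.8, 43.1 and 40.3 to 109, 104 and 111 RPKM (log2 fold change 1.46 ± 0.13 SE, adjusted p = 6.65e-07, edgeR) and C1qb from 32, 41.6 and 37.6 to 111, 103 and 112 RPKM (log2 fold change 1.55). C3ar1 went from 1.06, 1.07 and 1.08 to 2.54, 3.07 and 3.31 RPKM (log2 fold change 1.47), again without overlap. Cfb was at 6.53, 7.04 and 6.81 RPKM in controls and 9.74, 9.01 and 9.09 RPKM in C362A embryos, a separation of small size (log2 fold change 0.45 ± 0.11 SE, adjusted p = 0.00311, edgeR). Beside these, the macrophage and monocyte markers summed to 482 to 598 CPM in controls and 701 to 711 CPM in mutants, with 7 of 12 called higher and 1 lower, and the neutrophil markers summed to 13.3 to 33.3 and 321 to 409 CPM. Their part in the result was not tested.

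Loss of cFLIP on top of C362A gave much the same picture except for C2. In C362A Cflar-/- against Mlkl-/- intestines, 7 of the 9 genes were called higher and 0 lower, with 13.4% of all genes called higher and 11.2% lower. No overlap was seen for 7 of 9 (55% of all genes). C3 stood at 44.3, 45.1 and 29.97 RPKM, C4b at 4.23, 5.13 and 2.51 RPKM, C1ra at 8.13, 10.5 and 9.22 RPKM and Serping1 at 52.9, 67.6 and 57.6 RPKM, all above every control, with log2 fold changes of 3.35, 3.81, 2.72 and 1.99. C2 lay at 9.8, 13.3 and 24.1 RPKM, on both sides of the controls (log2 fold change -0.42 ± 0.23 SE, adjusted p = 0.147, edgeR). Beside these values, 6 of 9 neutrophil markers were called higher (median log2 fold change 3.47), and of 12 macrophage and monocyte markers 6 were higher and 2 lower (1.07). Their part was not tested.

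Compared directly with C362A intestines, 1 of the 9 genes was called in C362A Cflar-/- intestines, lower, where 1.45% of all genes were called higher and 4.62% lower. Groups were separate for 3 of 9 (32.3% of all genes). C2 was the gene called, at 9.8, 13.3 and 24.1 against 49.6, 46.1 and 47.7 RPKM with no overlap (log2 fold change -1.60 ± 0.24 SE, adjusted p = 5.01e-04, edgeR). Serping1 was lower by a size under the fold threshold (log2 fold change -0.76 ± 0.15 SE, adjusted p = 0.0038, edgeR), as was Cfb (log2 fold change -0.46). Values of C3, C4b, C1ra, C1qa, C1qb and C3ar1 overlapped between these genotypes.

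The effects of the cFLIP-deficient mutants, each against its own controls, were then set against each other. For C362A Cflar-/- minus 1xDA Cflar-/-, 0 of the 9 genes had a difference that was called, where 0.0662% of 19643 genes were called higher and 0.0102% lower. At an unadjusted p under 0.05 there were 2, C1qa and C1qb, and limma-voom likewise called 0. The widest estimate was that of C2 (difference of log2 fold changes 0.70 ± 0.37 SE, adjusted p = 0.28, edgeR).

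Caspase-1 was then removed from both backgrounds. Without it C1ra, C4b, C3 and Serping1 fell in each, C1qa, C1qb and C3ar1 moved by less than the fold threshold, and C2 rose past it in the D387A background. Each Casp1-deficient genotype was compared with its Casp1-sufficient counterpart.

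Comparing 1xDA Cflar-/- Casp1-/- with 1xDA Cflar-/- intestines, 1 of the 9 genes was called higher and 4 lower, where 8.88% of genes were called higher and 4.51% lower. Groups did not overlap for 5 of 9 genes (53.2% of all genes). Serping1 stood at 16.8, 14.7 and 29.3 RPKM, against 90.2, 67 and 97.5 RPKM with caspase-1. The groups were far apart, and the fall was 4.19-fold (log2 fold change -2.07 ± 0.19 SE, adjusted p = 1.74e-07, edgeR). C1ra lay at 1.66, 1.64 and 2.75 RPKM, 6.69-fold lower and again without overlap (log2 fold change -2.74 ± 0.18 SE, adjusted p = 3.91e-09, edgeR). For both genes the first and second 1xDA Cflar-/- Casp1-/- embryos were within or beside the range of the Mlkl-/- controls.

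C4b lay at 0.279, 0.201 and 0.789 RPKM in 1xDA Cflar-/- Casp1-/- embryos, below every 1xDA Cflar-/- embryo (log2 fold change -2.90 ± 0.35 SE, adjusted p = 3.95e-06, edgeR). C3 stood at 14.9, 12.1 and 57.4 RPKM against 105, 97.4 and 75.9 RPKM, also without overlap (log2 fold change -1.72 ± 0.46 SE, adjusted p = 0.00529, edgeR), and the third 1xDA Cflar-/- Casp1-/- embryo lay closest to the 1xDA Cflar-/- range. Without that embryo the log2 fold changes were -3.03 for C1ra, -2.43 for Serping1, -3.70 for C4b and -2.78 for C3, all still called.

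C2 was the gene called higher, at 14.8, 18.4 and 37.6 RPKM against 11.5, 7.02 and 9.28 RPKM (log2 fold change 1.35 ± 0.26 SE, adjusted p = 3.93e-04, edgeR), and without the third embryo the log2 fold change was 0.84 (adjusted p = 6.26e-04), under the fold threshold. C1qa (61, 60.8 and 102 RPKM), C1qb (57.2, 53.1 and 86 RPKM) and C3ar1 (1.87, 1.53 and 2.77 RPKM) overlapped the 1xDA Cflar-/- group through the third embryo alone. Their log2 fold changes were -0.27, -0.37 and -0.39, and without that embryo -0.56 (adjusted p = 3.80e-04), -0.62 (adjusted p = 5.36e-04) and -0.66 (adjusted p = 0.00224), under the fold threshold. In that embryo the macrophage and monocyte markers summed to 628 CPM, against 426 and 417 CPM in the others, and the erythroid markers to 809.8 CPM against 4688 and 2292 CPM. Over the 3 embryos of each group, 5 of 9 neutrophil markers tested were called lower than in 1xDA Cflar-/- intestines (median log2 fold change -1.71) and 6 of 6 erythroid markers higher (2.00). The part of these cells in the complement levels was not tested.

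In C362A Casp1-/- against C362A intestines, 0 of the 9 genes were called higher and 4 lower, where 5.6% of genes were called higher and 5.72% lower. Groups were separate for 9 of 9 genes (53.5% of all genes). Serping1 stood at 13.9, 20.4 and 17.3 RPKM against 116, 93.6 and 91.5 RPKM, a 5.84-fold fall to levels that overlapped the controls of this set (log2 fold change -2.55 ± 0.16 SE, adjusted p = 1.28e-07, edgeR). C1ra lay at 2.28, 2.82 and 2.87 RPKM against 13.5, 9.64 and 10.9 RPKM (log2 fold change -2.10 ± 0.17 SE, adjusted p = 7.77e-07, edgeR). Neither gene overlapped between the genotypes compared.

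C4b was at 1.38, 1.64 and 1.15 RPKM against 5.22, 5.77 and 3.96 RPKM (log2 fold change -1.84 ± 0.24 SE, adjusted p = 6.67e-05, edgeR) and C3 at 12, 13.9 and 9.22 RPKM against 35.3, 27.4 and 32.7 RPKM (log2 fold change -1.44 ± 0.18 SE, adjusted p = 3.12e-05, edgeR), each lower in all 3 Casp1-deficient embryos. C2 was higher in all 3, at 69.3, 91.1 and 76.9 RPKM against 49.6, 46.1 and 47.7 RPKM, by less than the fold threshold (log2 fold change 0.73 ± 0.23 SE, adjusted p = 0.025, edgeR). C1qa, C1qb and C3ar1 were lower and Cfb was higher, with log2 fold changes of -0.51, -0.73, -0.63 and 0.32, adjusted p at or below 0.0274 (edgeR) and sizes under the threshold. Beside these falls, the neutrophil markers summed to 321 to 409 CPM with caspase-1 and 18.9 to 22.3 CPM without, and the macrophage and monocyte markers to 701 to 711 and 633 to 670.35 CPM. Of the latter, 1 of 12 was called higher and 6 lower, at a median log2 fold change of -0.94. Their part in the falls was not tested.

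**Figure D3:**
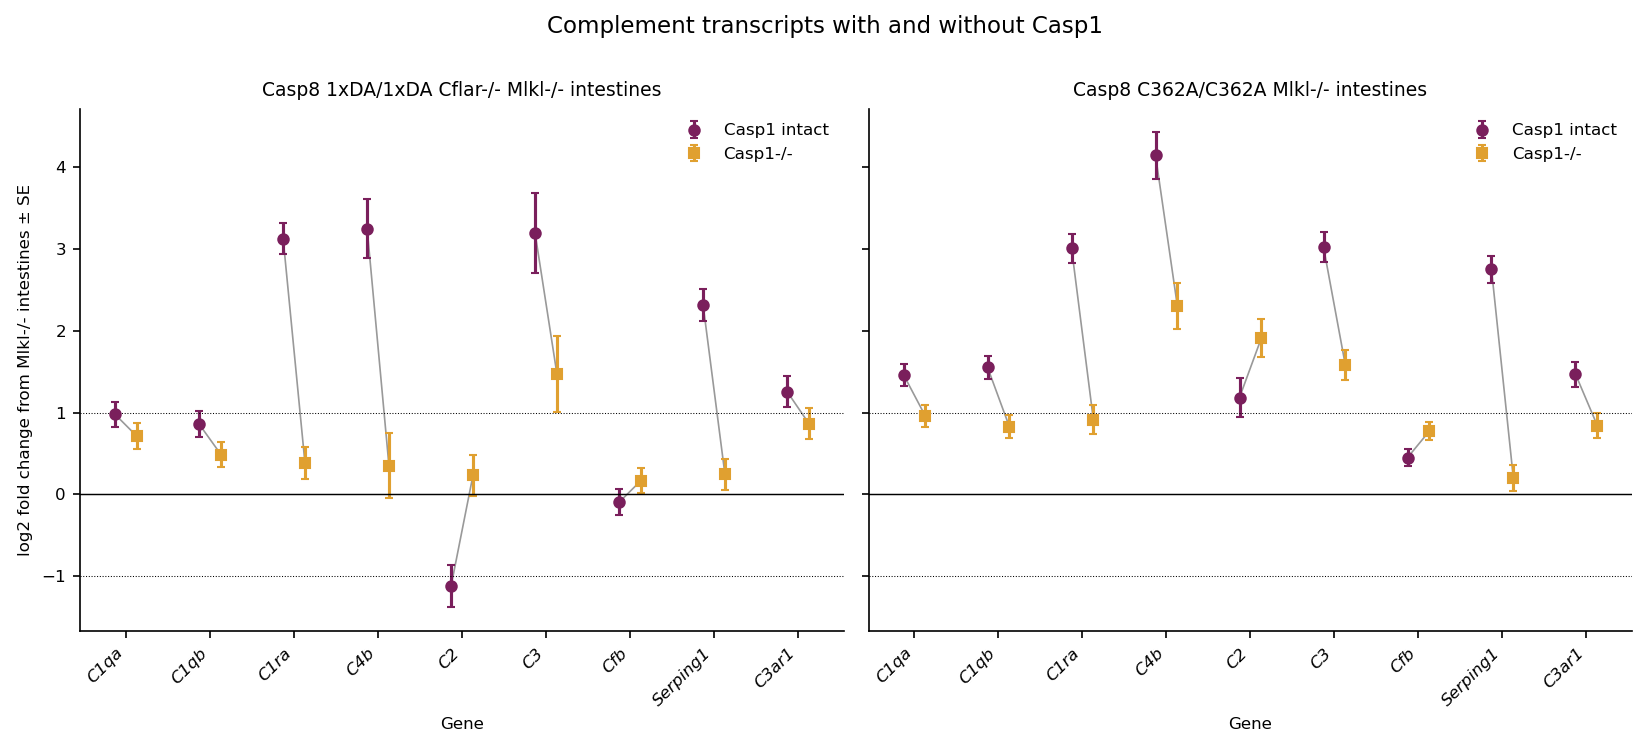
Log2 fold change ± SE from the Mlkl-/- intestines of the same set for each of the 9 genes, with caspase-1 intact (purple circles) and in Casp1-/- embryos (orange squares), in the D387A (left) and C362A (right) intestines, with dotted lines at the fold threshold. As folds, Serping1 goes from 4.98 to 1.19 times control on the left and from 6.73 to 1.15 on the right, while C2 goes from 0.462 to 1.18 and from 2.27 to 3.76.

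What stayed above the controls without caspase-1 differed from gene to gene. Comparing 1xDA Cflar-/- Casp1-/- with control intestines, 1 of the 9 genes was called higher and 0 lower, with 2.16% of genes called higher and 2.18% lower. The groups were separate for 3 of 9 (37.5% of all genes). These were C1qa, C1qb and C3ar1, higher by log2 fold changes of 0.71, 0.49 and 0.87, under the fold threshold. Without the third 1xDA Cflar-/- Casp1-/- embryo the values were 0.42 (adjusted p = 0.0126), 0.24 (adjusted p = 0.204) and 0.59 (adjusted p = 0.0195, all edgeR). The gene called was C3 (log2 fold change 1.47 ± 0.46 SE, adjusted p = 0.0311, edgeR), whose values overlapped those of the controls, and without the third 1xDA Cflar-/- Casp1-/- embryo its log2 fold change was 0.41 (adjusted p = 0.396). The call was also lost with limma-voom, with the replicate block and with only the 2 groups fitted. In C362A Casp1-/- against Mlkl-/- intestines, 3 were called higher and 0 lower, with 6.79% of genes called higher and 3.73% lower. There 8 of 9 had no overlap (51% of all genes).

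The genes called were C2 (69.3, 91.1 and 76.9 against 19.8, 21.8 and 21.5 RPKM, log2 fold change 1.91 ± 0.24 SE, adjusted p = 3.54e-05, edgeR), C4b (1.38, 1.64 and 1.15 against 0.226, 0.275 and 0.348 RPKM, log2 fold change 2.30 ± 0.28 SE, adjusted p = 3.02e-05, edgeR) and C3 (12, 13.9 and 9.22 against 4.27, 3.63 and 3.83 RPKM, log2 fold change 1.58 ± 0.18 SE, adjusted p = 1.65e-05, edgeR). None of the 3 genes overlapped the controls. With the control embryos of both sets pooled, C3 was no longer called (log2 fold change 0.68, adjusted p = 0.152). The D387A controls held 6.76 to 14.8 RPKM of C3. Markers also differed from the controls. In 1xDA Cflar-/- Casp1-/- intestines 3 of 12 macrophage and monocyte markers and 4 of 6 erythroid markers were called higher, and of 10 hepatocyte markers 6 were lower and 1 higher. In C362A Casp1-/- intestines 4 of 12 macrophage and monocyte markers were higher, 1 of 6 erythroid markers was lower, and of 10 hepatocyte markers 3 were lower and 1 higher. Their part was not tested.

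The effect of caspase-1 loss was compared between the backgrounds. The D387A genotypes of this comparison lacked cFLIP and the C362A genotypes kept it, so allele and cFLIP cannot be told apart in it. For the C362A minus the D387A background, 0 of the 9 genes had a difference that was called, with 0.825% of 19643 genes called higher and 4.9% lower, and 2 had an unadjusted p under 0.05. They were C4b (difference of log2 fold changes 1.03 ± 0.45 SE, adjusted p = 0.109, edgeR) and C1ra (difference of log2 fold changes 0.62 ± 0.24 SE, adjusted p = 0.0741, edgeR, and 0.90 (adjusted p = 0.00572) without the third 1xDA Cflar-/- Casp1-/- embryo). Limma-voom called C4b (1.29, adjusted p = 0.0473), and without that embryo the differences were 1.83 (adjusted p = 0.00226) for C4b and 1.31 (adjusted p = 0.0168) for C3, both called. The call for C3 therefore turned on 1 embryo, and that for C4b on that embryo and on the test.

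With further loss of the interferon receptor, C3 was higher and none of the 9 genes was called lower. Relative to 1xDA Cflar-/- Casp1-/- intestines, 1 of the 9 genes was called higher in 1xDA Cflar-/- Casp1-/- Ifnar-/- intestines and 0 lower, with 3.28% of genes called higher and 2.03% lower. Groups did not overlap for 1 of 9 (35.7% of all genes). C3 stood at 87.2, 72.9 and 61.9 RPKM against 14.9, 12.1 and 57.4 RPKM, so every Ifnar-deficient embryo exceeded every embryo of the reference group (log2 fold change 1.40 ± 0.45 SE, adjusted p = 0.0282, edgeR). The call was lost when the first or the second embryo of either group was left out, at log2 fold changes of 1.09, 1.03, 1.26 and 1.41. It was also lost with only the 2 groups fitted. Leaving out the third 1xDA Cflar-/- Casp1-/- embryo instead gave 2.45 (adjusted p = 1.95e-05) for C3, and C4b at 1.71 (adjusted p = 1.77e-04) and C2 at 1.16 (adjusted p = 5.86e-05) were then called as well. Beside these values, 5 of 6 erythroid markers were called lower (median log2 fold change -2.80), 4 of 5 pancreatic acinar markers higher (4.87), and of 10 hepatocyte markers 3 lower and 1 higher (-1.90). Their part in the result was not tested.

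Against Mlkl-/- controls, 2 of the 9 genes were called higher in 1xDA Cflar-/- Casp1-/- Ifnar-/- intestines and 0 lower, with 6.76% of genes called higher and 5.64% lower. No overlap was seen for 9 of 9 (56.9% of all genes). C3 was far above all controls (log2 fold change 2.87 ± 0.48 SE, adjusted p = 1.26e-04, edgeR), and C4b, at 0.702, 0.837 and 0.818 RPKM, lay above them too (log2 fold change 1.25 ± 0.38 SE, adjusted p = 0.0111, edgeR). Without the third Mlkl-/- embryo C4b missed the threshold (1.03, adjusted p = 0.0562). C1ra (2.45, 3.02 and 2.74 RPKM), C2 (32.8, 36.2 and 42.6 RPKM), C1qa (80.8, 87.6 and 86.1 RPKM) and Cfb (9.27, 10.1 and 9.96 RPKM) each stood above all 3 controls by sizes under the fold threshold, and Serping1 (18.8, 21.1 and 22 RPKM) did so with an adjusted p of 0.243 (edgeR). Of the macrophage and monocyte markers, which summed to 603 to 685 CPM against 464 to 487 CPM in controls, 4 of 12 were called higher. Neutrophil markers had 4 of 9 higher and 2 lower, and hepatocyte markers 1 of 10 higher and 7 lower. Their part in the C3 and C4b values was not tested.

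Embryos that also lacked Fadd had the highest C2 of the D387A set. Relative to 1xDA Cflar-/- Casp1-/- intestines, 1 of the 9 genes was called higher in 1xDA Cflar-/- Casp1-/- Fadd-/- intestines and 1 lower, with 2.56% of genes called higher and 0.877% lower. Groups did not overlap for 4 of 9 (29.6% of all genes). C2 stood at 63.3, 59.1 and 52.8 RPKM against 14.8, 18.4 and 37.6 RPKM, without overlap (log2 fold change 1.31 ± 0.25 SE, adjusted p = 0.00189, edgeR). C3 stood at 11, 9.47 and 8.63 RPKM and was called lower (log2 fold change -1.54 ± 0.46 SE, adjusted p = 0.0284, edgeR), all 3 embryos lying below all 3 of the reference group. That call was lost when any 1 1xDA Cflar-/- Casp1-/- Fadd-/- embryo was left out (adjusted p of 0.0613, 0.0837 and 0.0825), with limma-voom, with the replicate block and with only the 2 groups fitted, where the C2 call was lost too (adjusted p = 0.0504, edgeR). Without the third 1xDA Cflar-/- Casp1-/- embryo C3 was at -0.48 (adjusted p = 0.29), while C2 was at 1.81 (adjusted p = 9.32e-07) and C4b, at 1.41 (adjusted p = 0.00204), was then called higher. All 6 erythroid markers were also called lower in 1xDA Cflar-/- Casp1-/- Fadd-/- intestines, and their part was not tested.

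Against Mlkl-/- controls, only C2 of the 9 genes was called in 1xDA Cflar-/- Casp1-/- Fadd-/- intestines, higher (log2 fold change 1.54 ± 0.25 SE, adjusted p = 4.45e-04, edgeR), where 2.81% of genes were called higher and 0.975% lower. The groups were separate for 5 of 9 genes (38% of all genes). C3 (11, 9.47 and 8.63 RPKM), Serping1 (16.3, 16.1 and 16.6 RPKM), C1qa (54.3, 50.7 and 43.1 RPKM) and C1qb (50.4, 47 and 44.7 RPKM) overlapped the controls. C1ra (2.06, 1.78 and 2.37 RPKM), C4b (0.609, 0.67 and 0.637 RPKM), Cfb (8.53, 9.62 and 8.01 RPKM) and C3ar1 (1.3, 1.63 and 1.48 RPKM) lay above all 3 by less than the fold threshold. Of the 9 genes only C2 passed the adjusted p.

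C2 levels were then set beside epithelial markers over the intestines. Its lowest values were in 1xDA Cflar-/- (7.02 to 11.5 RPKM) and C362A Cflar-/- (9.8 to 24.1 RPKM) embryos, the groups without cFLIP and with caspase-1, and its highest in 1xDA Cflar-/- Casp1-/- Fadd-/- (52.8 to 63.3 RPKM) and C362A Casp1-/- (69.3 to 91.1 RPKM) embryos, whose ranges overlapped no other group. The 8 intestinal epithelium markers summed to 10451 to 11133 CPM in D387A controls, 3411 to 3682 CPM in 1xDA Cflar-/-, 5792 to 7628 CPM in 1xDA Cflar-/- Casp1-/-, 7396 to 8900 CPM in 1xDA Cflar-/- Casp1-/- Ifnar-/- and 10868 to 11409 CPM in 1xDA Cflar-/- Casp1-/- Fadd-/- intestines. In the C362A set they summed to 8945 to 13255 CPM in controls, 5877 to 7180 CPM in C362A, 13447 to 15629 CPM in C362A Casp1-/- and 2912 to 4456 CPM in C362A Cflar-/- intestines. Fabp2 weighs heavily in these sums, at 6194 to 6349 CPM in D387A controls and 78.6 to 129 CPM in 1xDA Cflar-/- intestines. Against controls, 1 of 8 markers was called higher and 2 lower in 1xDA Cflar-/- (median log2 fold change -0.36), C362A Cflar-/- (-0.37) and C362A (0.15) intestines. In 1xDA Cflar-/- Casp1-/- Ifnar-/- intestines 1 was called higher and 1 lower (0.28). The 2 groups with the lowest C2 had the lowest sums, while 1xDA Cflar-/- Casp1-/- Ifnar-/- (32.8 to 42.6 RPKM) and C362A (46.1 to 49.6 RPKM) intestines had sums below all controls of their set and C2 above them. The part of epithelial cells in the C2 levels was not tested.

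In MEFs the same genotypes gave 1 call. Comparing 1xDA Cflar-/- with Mlkl-/- MEFs, 1 of the 8 genes tested was called higher and 0 lower, where 0.0711% of the 15465 genes tested, 11 genes, were called higher and 0% lower. Groups did not overlap for 2 of 9 (12.5% of all genes). C3 was the gene called, at 0.163, 0.294 and 0.192 RPKM in controls and 1.31, 2.39 and 1.72 RPKM in mutants. All 3 mutants lay above all 3 controls, at 8.3-fold (log2 fold change 3.05 ± 0.30 SE, adjusted p = 0.0104, edgeR), on 27, 46 and 21 reads against 148, 260 and 258 reads. The call was lost in 4 of the 6 fits that left out 1 library, at adjusted p of 0.0508 to 0.0666 and log2 fold changes of 2.80 to 3.36.

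C3 in every MEF library was below every control intestine, where it stood at 3.63 to 14.8 RPKM. The study's methods name a different library kit for MEFs than for intestines, while the labels name the same one, so sample type and kit may not be separable in such comparisons of levels. Serping1 was the most abundant of the 9 genes in MEFs, at 13.4, 14.8 and 17.7 RPKM in controls and 8.5, 14.7 and 10.9 RPKM in mutants, which overlapped (log2 fold change -0.43 ± 0.19 SE, adjusted p = 0.773, edgeR). C1ra stood at 1.86, 2.27 and 1.79 and 1.87, 3.65 and 2.1 RPKM and C4b at 0.749, 1.06 and 1.38 and 0.347, 1.01 and 0.681 RPKM, again with overlap. Within same-numbered pairs of MEF libraries Serping1 and C4b were lower and C1ra was higher in 3 of 3 mutants, and the fit with the number as a block called none of them. C2 stood at 0.679, 0.554 and 0.673 RPKM in controls and 0.459, 0.374 and 0.394 RPKM in mutants, lower in all 3 without passing the test (log2 fold change -0.63 ± 0.24 SE, adjusted p = 0.705, edgeR). Cfb had 3, 0 and 0 reads in controls and 4, 2 and 1 in mutants and was too low to test.

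C1qa (5.08 to 8.13 RPKM), C1qb (5.03 to 8.94 RPKM) and C3ar1 (1.21 to 2.37 RPKM) were also present in the MEF libraries, with overlapping genotypes. Of the macrophage markers in the same libraries, Csf1r lay at 9.85 to 16 CPM in controls and 12.1 to 15.4 CPM in mutants, Timd4 at 0 in all 6 and Ccr2 at no more than 0.0468 CPM. Other markers were present, with Adgre1 at 4.97 to 10.9, Mertk at 14.8 to 28.9 and Cd68 at 8.62 to 14.6 CPM over the MEFs. Adgre1 in D387A control intestines lay at 6.81 to 8.5 CPM. The 12 markers summed to 86 to 125 and 190.33 to 228 CPM, and of these Lyz2 alone was called, at 31.5 to 40.2 and 118 to 155 CPM (log2 fold change 1.99, adjusted p = 0.00122, edgeR). The part of such cells in the MEF values was not tested.

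The effect of the 1xDA Cflar-/- genotype was compared between MEFs and intestine in 1 fit. For MEFs minus intestine, 0 of the 9 genes were called higher and 5 lower, where 8.01% of 18862 genes were called higher and 7.3% lower. The effect in MEFs lay below that in intestine for C4b (difference of log2 fold changes -3.91 ± 0.55 SE, adjusted p = 8.79e-06, edgeR), C1ra (difference of log2 fold changes -2.80 ± 0.31 SE, adjusted p = 4.45e-07, edgeR), Serping1 (difference of log2 fold changes -2.77 ± 0.29 SE, adjusted p = 2.03e-07, edgeR), C3ar1 and C1qb. In MEFs alone, C4b, Serping1, C3ar1 and C1qb had log2 fold changes of -0.64, -0.43, -0.25 and -0.26 and C1ra 0.36, none of them called. The difference for C3 was -0.17 ± 0.82 SE (adjusted p = 0.922, edgeR), so C3 was not shown to differ between the sample types. C1qa, at -0.96, was just under the fold threshold, and it was called in 5 of the fits that left out 1 library.

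Of 43 other complement genes on a list of the pathway, 31 could be tested in the D387A intestines. For 1xDA Cflar-/- against control intestines 7 of them were called higher and 8 lower, and their median log2 fold change was -0.02 beside -0.01 over all genes. By role, and with the 9 genes included, receptors had 5 of 6 called higher and 0 lower, the classical pathway 3 of 8 higher and 1 lower, and the terminal pathway 0 of 5 higher and 4 lower, where 9.4% of all genes were called higher and 12.8% lower. Among the other complement genes, the largest rises were those of C5ar1, the receptor for the C5 fragment (log2 fold change 2.82 ± 0.24 SE, adjusted p = 1.93e-08, edgeR), of C1s1 and of Itgb2, the shared chain of the leukocyte complement receptors (log2 fold change 2.28).

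The deepest falls were in Mbl2, a mannose-binding lectin, with 41, 41 and 37 reads in controls and 1, 1 and 0 in mutants, and in chains of the terminal component C8. C8b had 56, 62 and 45 and 0, 6 and 0 reads, and C8g stood at 10.9, 10.6 and 9.76 and 1.03, 0.866 and 0.804 RPKM (log2 fold change -3.53 ± 0.21 SE, adjusted p = 3.55e-10, edgeR). Cfi, the protease that inactivates C3b, lay at 64.9, 68.1 and 58.1 RPKM in controls and 13.7, 16.2 and 14.1 RPKM in mutants, with no overlap. Hepatocyte markers summed to 2364 to 3129 CPM in controls and 1012 to 1295 CPM in mutants, most of it Cps1, which enterocytes also express. Of the 10 markers, 7 were called lower and 1 higher, at a median log2 fold change of -2.96. The part of liver cells in these falls was not tested.

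In C362A against Mlkl-/- intestines 10 of 32 were called higher and 6 lower, where 10.4% and 7.55% of all genes were, with a median of 0.19 beside 0.02 over all genes. Here the classical pathway had 8 of 9 called higher, receptors 6 of 6 and the terminal pathway 0 of 5, with 3 of the last called lower. Among the other complement genes, C5ar1 (2.94), Itgax (2.84) and C1s1 (2.66) had the largest rises on the log2 scale. In C362A Cflar-/- against Mlkl-/- intestines 12 were called higher and 6 lower, where 13.4% and 11.2% of all genes were, led by C1s1 (2.60) and C1s2 (2.53).

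Caspase-1 loss moved these genes in both directions. For 1xDA Cflar-/- Casp1-/- against 1xDA Cflar-/- intestines 7 of 31 were called higher and 7 lower, where 8.88% and 4.51% of all genes were, and without the third 1xDA Cflar-/- Casp1-/- embryo 6 were higher and 8 lower. In C362A Casp1-/- against C362A intestines 5 of 32 were called higher and 9 lower, where 5.6% and 5.72% of all genes were. C1s1, the partner of C1ra, stood at 2.73, 2.62 and 4.86 RPKM in 1xDA Cflar-/- Casp1-/- embryos and 3.51, 4.85 and 3.75 RPKM in C362A Casp1-/- embryos, and fell in each background (log2 fold change -2.75 ± 0.18 SE, adjusted p = 4.01e-09, edgeR, and log2 fold change -2.58 ± 0.18 SE, adjusted p = 2.22e-07, edgeR). Receptors had 3 of 6 called lower in the D387A and 5 of 6 in the C362A background, while the terminal pathway had 3 and 2 of 5 called higher. In 1xDA against Mlkl-/- intestines and in MEFs edgeR called 0 of the other complement genes in either direction, with 5 and 3 of them at an unadjusted p under 0.05, limma-voom called 0 in both, and DESeq2 called 0 in the intestines and 2 in MEFs.

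**Figure D4:**
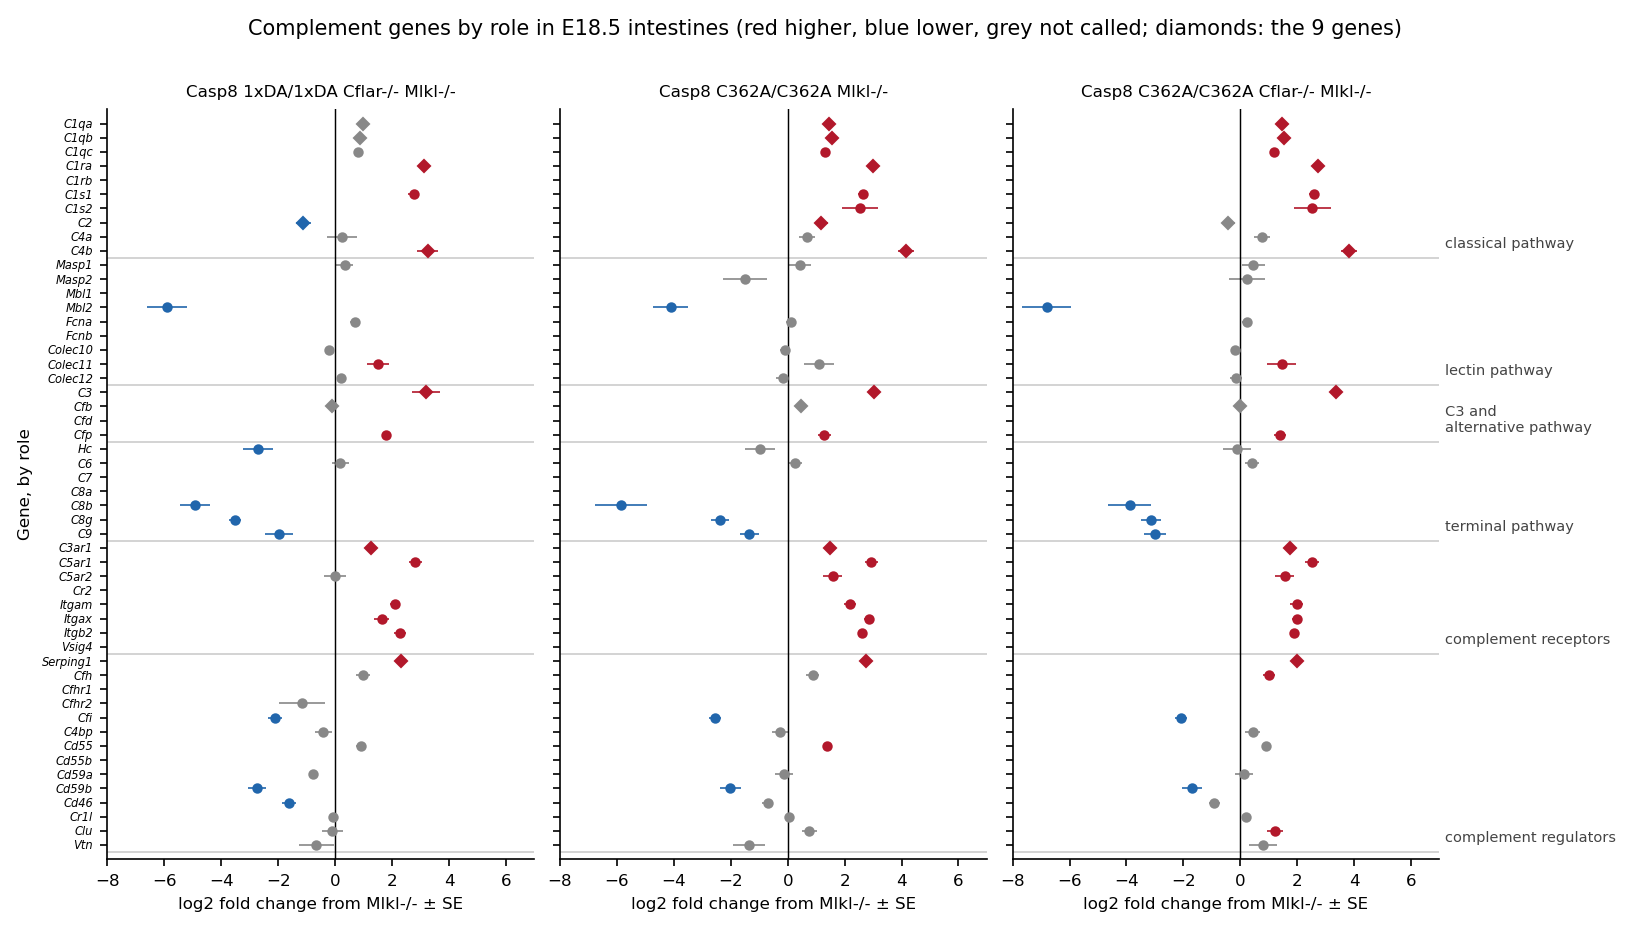
Log2 fold change ± SE from the Mlkl-/- intestines of the same set for each complement gene tested (rows, by role) in 1xDA Cflar-/-, C362A and C362A Cflar-/- intestines, with genes called higher in red, called lower in blue and not called in grey, and diamonds for the 9 genes. Red points are frequent among receptors (5, 6 and 6 of 6) and absent from the terminal pathway, where 4, 3 and 3 of 5 are blue.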

How the data were processed

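Per the labels, RNA from E18.5 intestines and MEFs (biological replicates, total RNA) was sequenced as 50-base single-end reads. The labels and the study's methods name different library kits, and the methods name one for intestines and another for MEFs, so strand use is unclear. The authors aligned reads with GSNAP to GRCm38 (mm10), kept unique alignments and deposited a count per gene and library with gene width. The counting program and annotation are not given in the sources used here. Their deposited RPKM column was not used, since it divides by totals larger than the reads on genes.

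Counts were normalised by TMM and tested with edgeR 4.0.16 (R 4.3.3) quasi-likelihood fits of all genotypes of a set, after filterByExpr (minimum count 10, total 15), with a prior count of 0.125 and Benjamini-Hochberg adjustment over 18360 (D387A), 19408 (C362A) and 15465 (MEF) genes. Differences between sets were interaction terms in joint fits. RPKM and CPM here were computed from the counts on TMM library sizes. Alternatives were limma 3.58.1 voom, DESeq2 1.42.0, other scaling, filters, prior count, samples, call rule, a replicate block and leaving out each library. Of 52636 identifiers 52403 matched a symbol. Promoter windows came from RefSeq (GRCm38.p6).

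The 9 genes and all lists were chosen with earlier results of these data known. Other complement genes were named as those with the largest called change in each direction; C1s1, Cfi and the marker genes printed were picked with their values seen. Replicate numbers paired the MEF libraries (correlations of same-numbered deviations 0.354 to 0.535 over 3 pairs) and not the intestines. No library was a copy of another.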

Additional observations from a re-analysis of the deposited data

Results flagged for a closer look

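The effect of 1xDA Cflar-/- against Mlkl-/- differed between MEFs and intestine for 5 of the 9 genes by an interaction term in 1 edgeR fit, with Benjamini-Hochberg adjustment over all genes. The effect in MEFs minus that in intestine was -3.91 on the log2 scale for C4b (adjusted p = 8.79e-06), -2.80 for C1ra (adjusted p = 4.45e-07), -2.77 for Serping1 (adjusted p = 2.03e-07), -1.53 for C3ar1 (adjusted p = 2.30e-04) and -1.14 for C1qb (adjusted p = 9.02e-04). Each of these genes was higher in all 3 mutant intestines than in all 3 control intestines and overlapped between the MEF genotypes. The value for C1qb fell below the fold threshold without the third 1xDA Cflar-/- intestine (-0.98) or the first Mlkl-/- MEF library (-0.99).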

How the results depend on the processing

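None of the 9 genes reversed a call under any alternative. DESeq2, relative log expression scaling, no filter, a mean of at least 50 reads and a prior count of 2 changed no call of the 9 genes. Leaving out 1 library at a time changed 37 of 1074 values' side of the threshold (20 lost, 17 gained). For 1xDA Cflar-/- Casp1-/- against Mlkl-/- intestines (1 gene called) there were 0 with limma-voom, 0 with the replicate block, 0 with only the 2 groups fitted, 4 without a fold threshold and 0 to 2 when leaving out 1 library. For 1xDA Cflar-/- Casp1-/- Ifnar-/- against Mlkl-/- (2 called) there were 8 without a fold threshold and 1 to 2 by leaving out. For 1xDA Cflar-/- Casp1-/- Fadd-/- against Mlkl-/- (1 called) there were 2 with both control groups pooled. Between 1xDA Cflar-/- Casp1-/- Ifnar-/- and 1xDA Cflar-/- Casp1-/- (1 called) there were 2 with limma-voom, 0 with only the 2 groups, 2 without a fold threshold and 0 to 3 by leaving out.

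Between 1xDA Cflar-/- Casp1-/- Fadd-/- and 1xDA Cflar-/- Casp1-/- (2 called) there were 1 with limma-voom, 1 with the replicate block, 0 with only the 2 groups, 4 without a fold threshold and 1 to 2 by leaving out. Without a fold threshold C362A Casp1-/- intestines had 8 against Mlkl-/- (3 called), 9 against C362A (4 called), and C362A Cflar-/- had 3 against C362A (1 called). MEFs (1 called) had 0 to 1 by leaving out, and the difference of caspase-1 loss between backgrounds (0 called) had 1 with limma-voom and 0 to 2 by leaving out. Leaving out gave 6 to 7 for 1xDA Cflar-/- against Mlkl-/-, 4 to 5 for 1xDA Cflar-/- Casp1-/- against 1xDA Cflar-/-, 3 to 4 for C362A Casp1-/- against Mlkl-/- and 4 to 6 for MEFs minus intestine. The cause was not tested. The replicate block changed no other call, and under it C3 had adjusted p of 0.0513 (1xDA Cflar-/- Casp1-/- against Mlkl-/-) and 0.0522 (1xDA Cflar-/- Casp1-/- Fadd-/- against 1xDA Cflar-/- Casp1-/-). Same-numbered intestines correlated at a median of -0.0537 (D387A) and -0.0942 (C362A), and 4 of 18 and 1 of 12 correlated best with their own number. C4b had the lowest single count of the 9 genes in intestine, 11 reads.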

Other observations

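Over the 8 mutant intestine genotypes, each against the Mlkl-/- controls of its own set, the gene outside the complement lists whose pattern of log2 differences lay closest to each of the 9 was found among 15911 genes, by root mean square difference. It was Ncf4 for C3 (0.356), Mmp13 for C1ra (0.270), Ifitm1 for Serping1 (0.295), Syt12 for C4b (0.376), Anpep for C2 (0.210), Ltb for C1qb (0.112), 2700038G22Rik for C1qa (0.141), Nop56 for C3ar1 (0.137) and Parp4 for Cfb (0.0943). The 8 points share controls within a set, and the values are descriptions.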
